A study of Mus musculus with 18 samples.

Results

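The regulators of the integrated stress response described here are 10 genes chosen by name: Atf4, Atf5, Ddit3, Trib3, Chac1, Ppp1r15a, Ppp1r15b, Cebpb, Cebpg and Nupr1. Of the 20207 genes listed for each sample, 9 members were found under these symbols, and Ppp1r15a was found under its older symbol Myd116. All 10 members had at least 1 read in each of the 18 samples, as had 12731 genes in total, and these 12731 genes were tested. The mRNA was taken from NIH3T3, an established line of mouse fibroblasts, in which DD-GFP, a green fluorescent protein fused to a destabilizing domain, had been stably introduced. Cells with much DD-GFP had been sorted, and the ligand S1, which keeps the domain folded, stayed in the medium of every group used here, the control included. Of 6 groups with 3 samples each, 1 was the unstressed control at 0 min, 2 were exposed to heat stress (HS) for 45 or 135 min, and 3 to tunicamycin (Tun) for 45, 135 or 405 min. Tunicamycin blocks N-linked glycosylation, so that proteins misfold in the endoplasmic reticulum (ER). Nothing in the labels says that the 3 samples of a group came from separate cultures, so p-values measure the spread between these samples.

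In the integrated stress response, kinases that sense different stresses phosphorylate the translation factor eIF2α, which lowers protein synthesis in general but lets the mRNA of the transcription factor ATF4 be translated. ATF4 then drives genes of amino acid supply and a further transcription factor, CHOP, encoded by Ddit3, and together they raise genes of feedback and of cell death. The ER-resident kinase PERK feeds tunicamycin stress into this pathway. Levels of mRNA do not show how much protein is made, and for ATF4, ATF5 and CHOP translation is itself a regulated step.

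ATF4 binds DNA together with C/EBP proteins at the C/EBP-ATF response element, whose core letters TGATGNAA were searched on both strands of the RefSeq promoter windows (GRCm38.p6, 250 bases before to 50 bases after the start). Of 32851 windows, 3.97% held the core. Windows were given for 9 members (10 windows, with Ppp1r15b unmatched), and 3 of these windows held it, each on the strand opposite to the gene. The 3 matches are printed with the matched letters in capitals, because Chac1, Trib3 and Nupr1 are known targets of ATF4.

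Chac1, chr2:119351038-119351067, plus strand, match 193 bases before the start: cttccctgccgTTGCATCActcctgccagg

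Nupr1, chr7:126625562-126625591, minus strand, match 110 bases before the start: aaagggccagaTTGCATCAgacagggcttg

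Trib3, chr2:152344028-152344057, minus strand, match at position 15 counted from the start: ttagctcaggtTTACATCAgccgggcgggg

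The ER stress element, read as CCAAT, 9 bases of any kind and CCACG, was in 0.119% of all windows and in none of the 10 member windows. The heat shock element, read as 3 alternating GAA and TTC units with 2 bases between them, was in 0.603% of all windows and likewise in none of these 10. With 1 mismatch allowed in the CCACG letters, a choice made after the sequences had been seen, 0.998% of all windows and 1 member window held the ER stress element. That window belongs to Ddit3, the member that changed most, and the match is again on the strand opposite to the gene, 91 bases before the start, with its 2 outer letter groups and the bases between them in capitals.

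Ddit3, chr10:127290682-127290740, plus strand: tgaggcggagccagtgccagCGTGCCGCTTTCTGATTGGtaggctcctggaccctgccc

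Between 33415592 and 66478268 reads were counted per sample, and 3 reads corresponded to 0.0451 to 0.0898 CPM (reads scaled to a library of fixed size), here on the unadjusted library total, far under each member. The CPM values given for genes are scaled to the TMM-adjusted library total. Of the fibroblast markers, Vim had 1637 to 3689 and Col1a1 649 to 4096 RPKM, while Pdgfra (5.78 to 68.8) and Pdgfrb (10.2 to 71.9) were the lowest. Epcam, Cdh1, Ptprc, Pecam1 and Cdh5, which mark epithelial, immune and endothelial cells, reached at most 0.0999 RPKM and the immune marker Cd68 at most 7.61. A single axis held 78.2% of the spread within groups, and across genes its weights followed transcript GC content (Spearman's rho 0.717). The 3 samples farthest out on it were HS 45 min replicate 3 (-0.51), HS 135 min replicate 2 (0.465) and HS 135 min replicate 1 (-0.37). The axis was taken over 10919 genes with a mean of at least 50 reads, and percentiles of weight refer to these genes. The weight of Atf5 was at percentile 98.2, that of Cebpb at 97.0, Chac1 at 93.9, Ppp1r15a at 90.0 and Ddit3 at 87.7. Trib3 was at 86.3, Atf4 at 81.9 and Nupr1 at 80.9, while Ppp1r15b (51.1) and Cebpg (30.01) were not near the upper end. The part of this axis in the results was not tested beyond the fits named beside them.

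**Figure D1:**
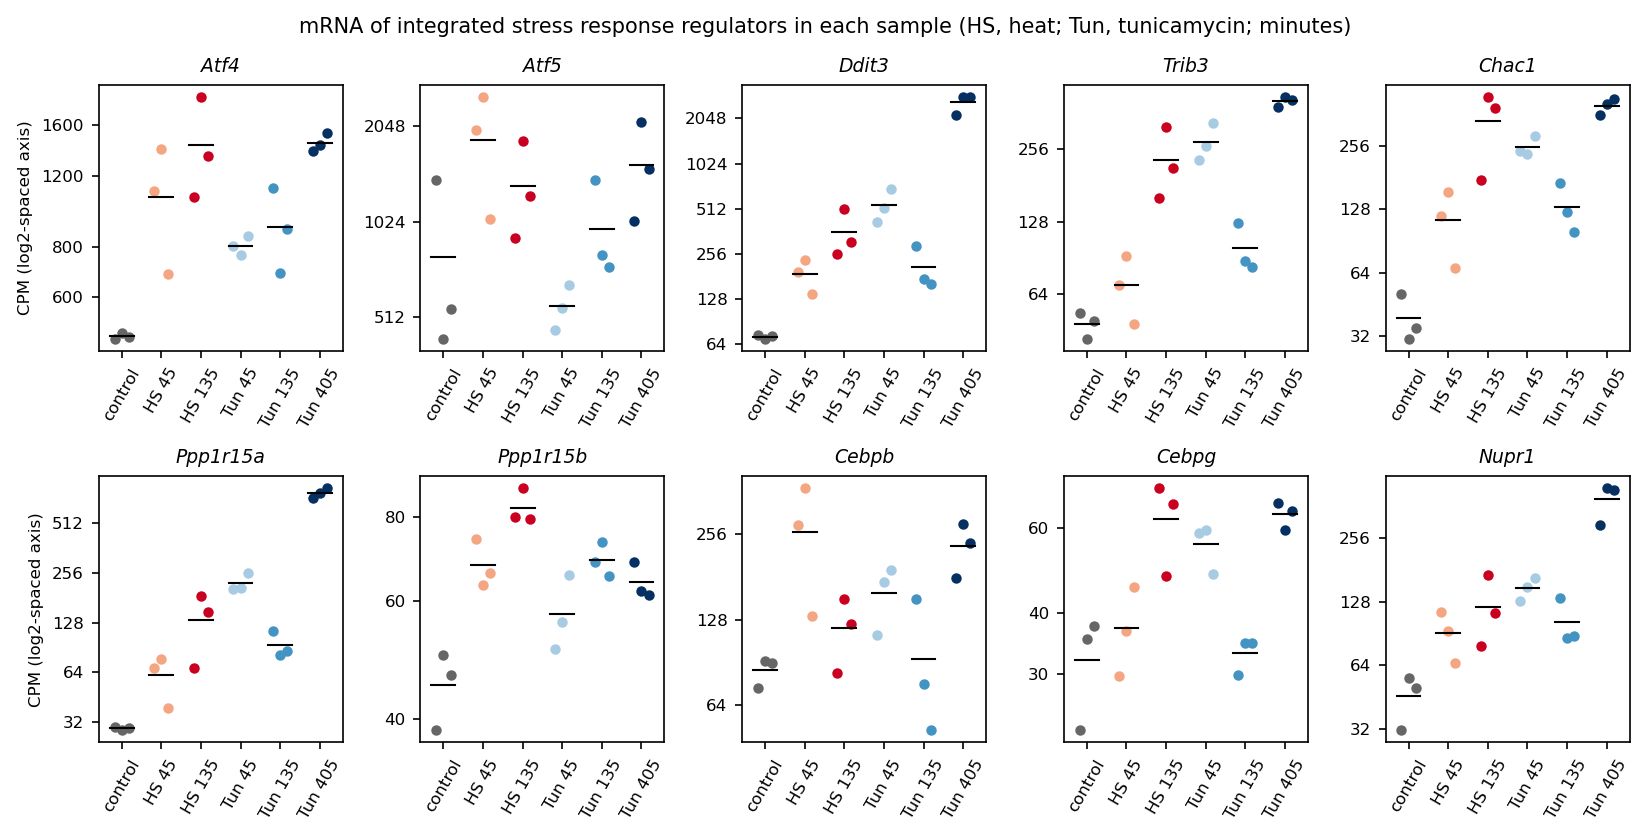
CPM of each member (y axis, spaced in log2 and scaled separately for each gene) in the 6 groups (x axis, minutes). Points are samples in the order of replicates 1 to 3 and bars are group means. Ddit3 and Ppp1r15a at 405 min of tunicamycin lie above every other sample, whereas Atf4 reaches similar levels at 135 min of heat and 405 min of tunicamycin.

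Atf4 (chromosome 15 of mm9, 80085614 to 80087971) was among the most abundant members. It had 473, 490 and 478 CPM in the 3 controls, and 1099, 1398 and 684 at 45 min of heat. At 135 min of heat it had 1060, 1884 and 1346 CPM. Under tunicamycin it had 805, 761 and 849 CPM at 45 min, 1116, 689 and 886 at 135 min, and 1382, 1427 and 1528 at 405 min. All 15 stressed samples lay above all 3 controls, and the heat samples at 135 min spanned the whole range of the tunicamycin samples at 405 min.

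Ddit3 (chromosome 10 of mm9, 126727849 to 126733344) encodes CHOP, which promotes cell death when ER stress persists. It had 74.0, 69.4 and 72.2 CPM in the controls, 194, 233 and 138 at 45 min of heat, and 257, 513 and 309 at 135 min of heat. With tunicamycin the values were 416, 520 and 689 CPM at 45 min and 287, 175 and 161 at 135 min. At 405 min it reached 2165, 2864 and 2859 CPM. The controls differed little among themselves, each stressed sample lay above them, and the tunicamycin samples were high at 45 min, lower at 135 min and highest at 405 min, with no overlap between these 3 times.

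Atf5 (chromosome 7 of mm9, 52067628 to 52071942), a relative of ATF4 whose mRNA is also translated preferentially under stress, varied widely between replicates. Its controls had 1390, 437 and 543 CPM, so that replicate 1 stood well above the other two. At 45 min of heat the samples had 1987, 2541 and 1044 CPM, and at 135 min of heat 911, 1843 and 1238. Under tunicamycin they had 467, 548 and 648 CPM at 45 min, 1383, 802 and 736 at 135 min, and 1030, 2115 and 1503 at 405 min. Each stressed group overlapped the controls.

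Cebpb and Cebpg encode C/EBP proteins that can pair with ATF4 on DNA. Cebpb (chromosome 2 of mm9, 167514415 to 167515918) had 73.4, 91.4 and 90.1 CPM in the controls, 276, 373 and 132 at 45 min of heat, and 82.9, 152 and 123 at 135 min. Tunicamycin gave 113, 173 and 191 CPM at 45 min, 151, 76.0 and 51.9 at 135 min, and 180, 279 and 239 at 405 min. It was thus above all controls at the first time of either stress, overlapped them at 135 min of both, and was again above them at 405 min. Cebpg (chromosome 7 of mm9, 35831441 to 35841585) was the least abundant member per length in every group, between 5.85 ± 1.62 RPKM in the control and 11.1 ± 0.995 at 405 min of tunicamycin (SD, n = 3). It had 22.9, 35.4 and 37.7 CPM in the controls, 29.7, 36.8 and 45.4 at 45 min of heat, and 72.7, 47.8 and 67.5 at 135 min of heat. Under tunicamycin it had 58.8, 59.6 and 48.4 CPM at 45 min, 29.8, 34.7 and 34.8 at 135 min, and 67.7, 59.6 and 65.0 at 405 min. It overlapped the controls at 45 min of heat and 135 min of tunicamycin and lay above them in the other 3 stressed groups.

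Ppp1r15a and Ppp1r15b encode GADD34 and CReP, regulatory subunits that bring protein phosphatase 1 to eIF2α. GADD34 is the stress-inducible subunit and CReP is regarded as the constitutive one. Ppp1r15a (chromosome 7 of mm9, 52778290 to 52781583) had 29.9, 28.6 and 29.7 CPM in the controls, 68.0, 77.4 and 39.2 at 45 min of heat, and 68.0, 185 and 149 at 135 min of heat. With tunicamycin the values were 206, 209 and 256 CPM at 45 min, 115, 81.2 and 86.2 at 135 min, and 732, 786 and 837 at 405 min. All stressed samples lay above all controls, and the 3 tunicamycin times did not overlap, in the same order as for Ddit3. Ppp1r15b (chromosome 1 of mm9, 135028040 to 135033805) stayed within a narrow range, with 38.5 to 49.9 CPM in the controls and 50.9 to 88.3 over the 15 stressed samples. Its highest values, 79.9, 88.3 and 79.6 CPM, were those at 135 min of heat.

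Trib3 (chromosome 2 of mm9, 152163161 to 152169796) encodes a pseudokinase that restrains ATF4 and CHOP. It had 53.1, 41.5 and 49.2 CPM in the controls, 69.8, 92.0 and 47.9 at 45 min of heat, and 161, 317 and 214 at 135 min of heat. Tunicamycin gave 230, 264 and 331 CPM at 45 min, 127, 87.7 and 82.6 at 135 min, and 386, 425 and 411 at 405 min. The heat samples at 45 min overlapped the controls, and each later heat sample and each tunicamycin sample lay above them.

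Chac1 (chromosome 2 of mm9, 119176978 to 119180060) encodes an enzyme that degrades glutathione. It had 51.0, 31.2 and 35.1 CPM in the controls, 119, 154 and 67.4 at 45 min of heat, and 176, 437 and 387 at 135 min of heat. Under tunicamycin it had 241, 234 and 284 CPM at 45 min, 170, 124 and 100.045 at 135 min, and 358, 401 and 424 at 405 min. All stressed samples exceeded all controls, and those at 135 min of heat overlapped those at 405 min of tunicamycin. Nupr1 (chromosome 7 of mm9, 133766760 to 133768984), a small stress-induced nuclear protein, had 31.5, 55.9 and 49.98 CPM in the controls, 114, 92.8 and 65.5 at 45 min of heat, and 79.2, 172 and 113 at 135 min of heat. With tunicamycin the values were 129, 150.2 and 166 CPM at 45 min, 133, 85.8 and 87.6 at 135 min, and 295, 441 and 433 at 405 min. Each stressed sample lay above the controls, and those at 405 min of tunicamycin lay above all others.

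The comparison of heat with the control asks which of these genes respond to heat. At 135 min of heat 7 of 10 members rose, and 605 of 12731 genes (4.75%) were called higher by the same rule (edgeR's quasi-likelihood test, Benjamini-Hochberg adjusted p under 0.05). Chac1 rose most, by 3.09 on the log2 scale (standard error 0.389, adjusted p = 0.0124, edgeR), which is 8.52-fold with a 95% interval of 4.57 to 15.9. Ddit3 rose by 2.32 (0.289, adjusted p = 0.0122, edgeR), Trib3 by 2.27 (0.286, adjusted p = 0.0124) and Ppp1r15a by 2.19 (0.357, adjusted p = 0.0199). Atf4 itself rose by 1.57 (0.261, adjusted p = 0.0201, edgeR), or 2.98-fold, Nupr1 by 1.40 (adjusted p = 0.0479) and Ppp1r15b by 0.88 (adjusted p = 0.0388). Cebpg (0.97, adjusted p = 0.0659, edgeR), Atf5 (0.75, adjusted p = 0.311) and Cebpb (0.49, adjusted p = 0.234) did not pass. The median log2 fold change was 1.49 over the members and -0.02 over all genes tested. These calls rest on few samples: none remained without control replicate 2, without control replicate 3 or without HS 135 min replicate 3, while 4 were made without control replicate 1, 7 without HS 135 min replicate 1 and 8 without HS 135 min replicate 2. Over all genes the first 3 of these fits called 15, 11 and 11 and the last 3 called 542, 2467 and 1236. With library totals in place of TMM, Nupr1 (adjusted p = 0.0617, edgeR) and Ppp1r15b (adjusted p = 0.066) lost their calls and 5 members kept them. For Chac1, Ddit3 and Trib3 the lost calls had adjusted p-values of 0.0761 to 0.0866 (edgeR) at log2 fold changes of 2.17 to 3.02.

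At 45 min of heat no member passed the threshold, as no gene did (0% of 12731 called in either direction by edgeR, 2480 at an unadjusted p under 0.05, and 451 by DESeq2). All 3 heat samples lay above all 3 controls for 7 members (Atf4, Ddit3, Chac1, Ppp1r15a, Ppp1r15b, Cebpb and Nupr1), compared with 12.5% of all genes. The log2 fold changes were 1.62 for Cebpb, 1.53 for Chac1, 1.39 for Ddit3, 1.14 for Atf4 and 1.07 for Ppp1r15a, each with an adjusted p of 0.227 (edgeR). At an unadjusted p under 0.05 there were 8 members, and DESeq2 called 5. A fit on all 6 groups with 1 surrogate variable gave smaller log2 fold changes for the genes just named. They were 0.711 for Cebpb, 0.837 for Chac1, 0.798 for Ddit3, 0.598 for Atf4 and 0.435 for Ppp1r15a. In that fit Chac1, Ddit3 and Atf4 passed the threshold, and Cebpb and Ppp1r15a did not. One library decided this comparison: without HS 45 min replicate 3, the sample lowest on the axis of within-group spread, 9 members and 5786 genes were called, and without any other sample 0 members were. No member and no gene passed between 135 and 45 min of heat (0% called by edgeR, 1481 genes and 6 members at an unadjusted p under 0.05, 1 member and 403 genes by DESeq2), where Trib3 had the largest difference, 1.67 (0.85 to 2.49, adjusted p = 0.174).

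The tunicamycin course asks how the same genes respond to misfolding in the ER. It was compared with the same 3 controls as heat, so the 2 sets of fold changes are not independent. At 45 min 7 of 10 members rose, beside 4.01% of all genes. Ppp1r15a rose by 2.94 on the log2 scale (standard error 0.134, adjusted p = 8.81e-05, edgeR), Ddit3 by 2.92 (0.192, adjusted p = 0.000836) and Chac1 by 2.71 (0.209, adjusted p = 0.00122). Trib3 rose by 2.53 (0.174, adjusted p = 0.000999, edgeR), Nupr1 by 1.71 (adjusted p = 0.00861), Cebpb by 0.91 (adjusted p = 0.0424) and Atf4 by 0.76 (0.118, adjusted p = 0.0144). Thus Atf4 rose 1.69-fold where Ddit3 rose 7.59-fold. Cebpg (0.81, adjusted p = 0.0617, edgeR), Ppp1r15b (0.37, adjusted p = 0.18) and Atf5 (-0.50, adjusted p = 0.487) did not pass. Leaving out 1 sample kept the calls of Ddit3, Ppp1r15a, Trib3 and Chac1 in 6 of 6 fits, but that of Atf4 in 2 (lost without control replicate 2 or 3 or Tun 45 min replicate 1 or 2, adjusted p 0.0537 to 0.1), that of Cebpb in 2 (lost without control replicate 2 or 3 or Tun 45 min replicate 2 or 3, adjusted p 0.114 to 0.19) and that of Nupr1 in 5 (adjusted p = 0.0536 without Tun 45 min replicate 2). With a fit on all 6 groups Atf4 (adjusted p = 0.102, edgeR) and Cebpb (adjusted p = 0.226) were not called either.

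At 135 min of tunicamycin 1 member, Ppp1r15a, passed the threshold, at 1.69 ± 0.182 (log2 fold change and its standard error) and an adjusted p of 0.037 by edgeR. Beside it 0.126% of all genes were called higher. Chac1 (1.76, adjusted p = 0.0706, edgeR), Ddit3 (1.54, adjusted p = 0.0706) and Trib3 (1.06, adjusted p = 0.0946) had large differences that did not pass. All 3 samples lay above all 3 controls for 7 members, compared with 13.7% of all genes. Same-numbered samples deviated together in this comparison, as did replicates 2 and 3 across numbers, so that pairing by number was not settled. With the replicate block Ppp1r15a kept its size (1.68) but had an adjusted p of 0.0694 (edgeR). Its call was also lost in 5 of 6 fits that left out 1 sample (adjusted p 0.068 without control replicate 1, 0.319 without control replicate 2, 0.245 without control replicate 3, 0.121 without Tun 135 min replicate 2 and 0.132 without replicate 3). Without Tun 135 min replicate 1 there were 2 calls, beside 61 of 12731 genes. Between 45 and 135 min Ppp1r15a fell by 1.25 on the log2 scale (adjusted p = 0.047, edgeR), beside 0.173% of genes called lower. That call was lost without Tun 45 min replicate 1, 2 or 3 or Tun 135 min replicate 2 or 3 (adjusted p 0.194 to 0.391), with DESeq2 size factors and with a fit on all 6 groups (adjusted p = 0.0707, edgeR). Without Tun 135 min replicate 1 there were 5 calls, beside 218 of 12731 genes. The differences of Trib3 (-1.47, adjusted p = 0.0545, edgeR) and Ddit3 (-1.38, adjusted p = 0.109) had the same direction, while Atf4 differed by 0.16 (95% interval -0.28 to 0.59, adjusted p = 0.725).

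At 405 min of tunicamycin 9 of 10 members rose, Atf5 being the exception (0.99, adjusted p = 0.101, edgeR), where 23.3% of all genes were called higher. Ddit3 rose 37.1-fold (95% interval 27.7 to 49.9, adjusted p = 2.45e-06, edgeR) and Ppp1r15a 27.1-fold (21.7 to 33.9, adjusted p = 1.18e-06). Chac1 rose 10.2-fold (7.29 to 14.4, adjusted p = 2.39e-05, edgeR), Nupr1 8.66-fold (adjusted p = 7.05e-05) and Trib3 8.64-fold (adjusted p = 9.12e-06). Atf4 rose 3.06-fold (2.51 to 3.73, adjusted p = 5.58e-05, edgeR), Cebpb 2.78-fold (adjusted p = 0.00045), Cebpg 2.04-fold (adjusted p = 0.00295) and Ppp1r15b 1.44-fold (adjusted p = 0.0122). The median log2 fold change was 2.36 over the members and -0.01 over all genes. Without Tun 405 min replicate 1 the call of Ppp1r15b was lost (0.45, adjusted p = 0.0509, edgeR). Without control replicate 1 Atf5 was called too (1.69, adjusted p = 0.000451, edgeR), in a fit that called 7897 of 12731 genes. The comparison of 405 with 135 min gave 8 members that rose, all but Atf5 and Ppp1r15b, beside 21.4% of all genes, with log2 fold changes of 3.64 for Ddit3 (adjusted p = 9.87e-05, edgeR), 3.04 for Ppp1r15a (adjusted p = 4.5e-05), 2.02 for Trib3, 1.91 for Nupr1, 1.56 for Chac1, 1.30 for Cebpb, 0.93 for Cebpg and 0.67 for Atf4. Atf4 lost this call without Tun 135 min replicate 2 or 3 or Tun 405 min replicate 1, 2 or 3 (adjusted p 0.0658 to 0.0952, edgeR). Cebpb lost it without Tun 135 min replicate 2 or 3 or Tun 405 min replicate 2 or 3 (0.0522 to 0.083). Without Tun 135 min replicate 1 Atf5 was called too (0.99), in a fit that called 8126 of 12731 genes.

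**Figure D2:**
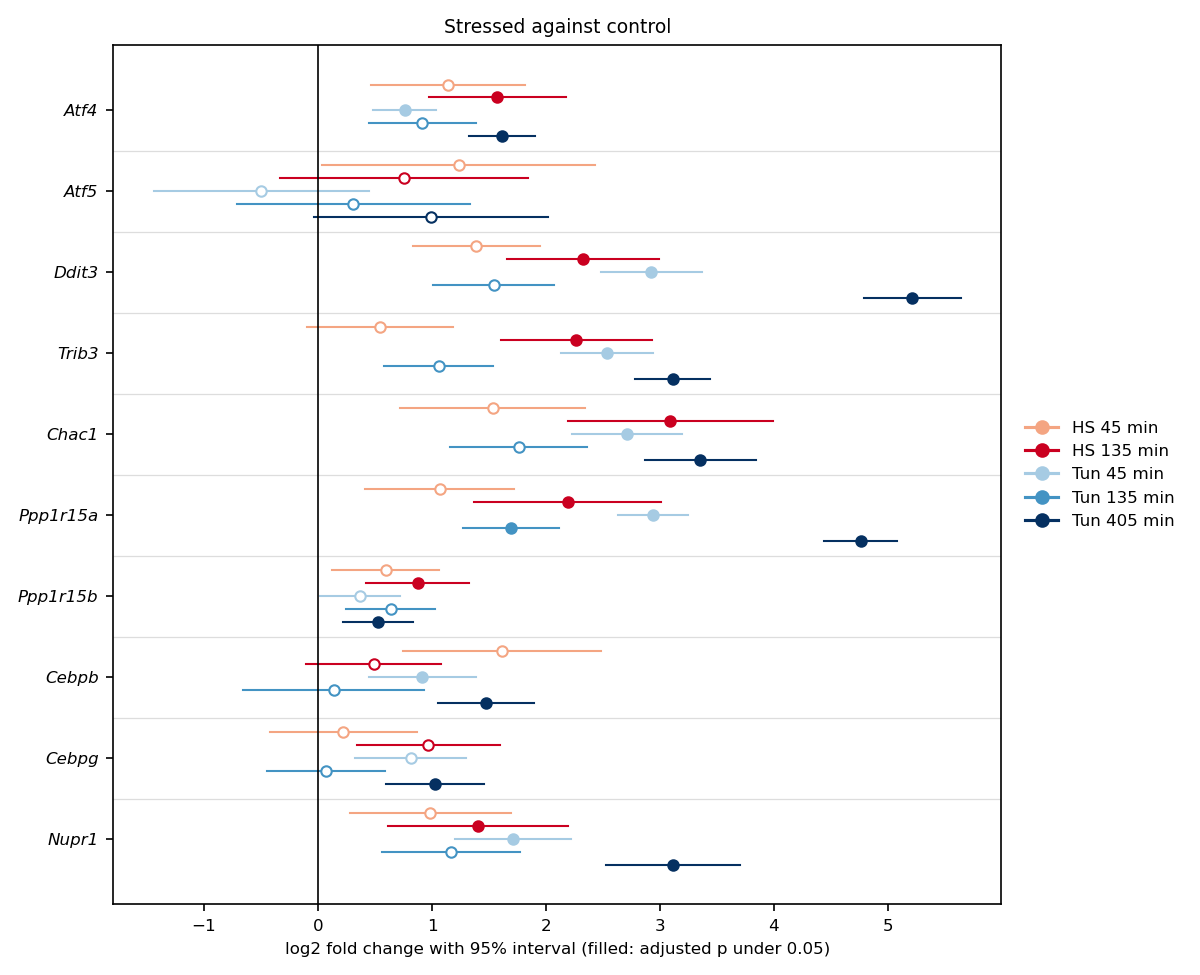
Log2 fold change of each member against the control (x axis) with its 95% interval, for the 5 stressed groups (colours). Filled points passed an adjusted p of 0.05. Atf4 lies between 0.76 and 1.61 in the 5 groups, while Ddit3 and Ppp1r15a spread from 1.39 to 5.22 and from 1.07 to 4.76.

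Tunicamycin was then set directly against heat. At 45 min no member passed the threshold (26 genes, 0.204%, were called in either direction), with 7 members at an unadjusted p under 0.05, as were 3061 of 12731 genes, and 5 called by DESeq2, as were 1127 genes. All 3 tunicamycin samples lay above all 3 heat samples for Ddit3, Trib3, Chac1, Ppp1r15a, Cebpg and Nupr1, compared with 15.7% of all genes. All 3 lay below for Atf5, compared with 13.1% of all genes. Trib3 had a log2 fold change of 1.98 (95% interval 1.32 to 2.64, adjusted p = 0.0654, edgeR), Ppp1r15a of 1.86 (1.21 to 2.52, adjusted p = 0.066) and Ddit3 of 1.52 (0.88 to 2.17, adjusted p = 0.0818). Atf4 had a difference of the other sign (-0.39, 95% interval -1.05 to 0.26, adjusted p = 0.372, edgeR). Here too 1 library decided the count: without HS 45 min replicate 3 there were 9 calls, beside 7087 of 12731 genes, and without any other sample 0.

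At 135 min no member passed the threshold between tunicamycin and heat (270 genes, 2.12%, called in either direction by edgeR). At an unadjusted p under 0.05 there were 3 members and 2543 genes, and DESeq2 called 3 members and 1256 genes. The log2 fold changes were all below 0, from -1.32 for Chac1 (95% interval -2.19 to -0.45, adjusted p = 0.11, edgeR) and -1.20 for Trib3 (-1.90 to -0.49, adjusted p = 0.0874) to -0.23 for Nupr1. All 3 tunicamycin samples lay below all 3 heat samples for 4 members (Trib3, Chac1, Ppp1r15b and Cebpg), compared with 13.4% of all genes. They lay above for 0 members, compared with 13.1% of all genes. Without HS 135 min replicate 1 Chac1 was called lower (-1.62, adjusted p = 0.0382, edgeR), beside 364 of 12731 genes called in either direction.

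The last time of each stress was also compared, although it was 405 min for tunicamycin and 135 min for heat, so that stress and time cannot be told apart. Of the 10 members 5 were higher at 405 min of tunicamycin, where 17.9% of all genes were called higher. Ddit3 was 7.17-fold higher (95% interval 4.27 to 12.04, adjusted p = 0.00101, edgeR), Ppp1r15a 5.75-fold (3.18 to 10.4, adjusted p = 0.00235) and Nupr1 3.16-fold (1.88 to 5.31, adjusted p = 0.0069), and these 3 calls held in 6 of 6 fits that left out 1 sample. Cebpb was 1.91-fold higher (adjusted p = 0.0306, edgeR) and Trib3 1.74-fold (adjusted p = 0.0461). Cebpb lost its call without HS 135 min replicate 3 or Tun 405 min replicate 2 or 3 (adjusted p 0.0938 to 0.114), and Trib3 without HS 135 min replicate 3 or Tun 405 min replicate 1, 2 or 3 (0.101 to 0.154). Cebpb also lost it with a fit on all 6 groups (adjusted p = 0.0605, edgeR) and Trib3 with filterByExpr, edgeR's own filter on low counts (adjusted p = 0.0509). Atf4 differed by -0.01 on the log2 scale (standard error 0.246, adjusted p = 0.9753, edgeR), with an interval of -0.59 to 0.56, or 0.666- to 1.48-fold. Cebpg (0.01, -0.44 to 0.46) and Chac1 (0.22, -0.55 to 0.99) also did not differ beyond their error, nor did Atf5 (0.19, -0.63 to 1.02). Ppp1r15b had a difference of -0.39 (-0.73 to -0.05) and missed the threshold (adjusted p = 0.0671, edgeR). All 3 of its tunicamycin samples lay below all 3 heat samples, as for 26.4% of all genes. It was called lower with a fit on all 6 groups (adjusted p = 0.0385, edgeR) and with 1 surrogate variable (adjusted p = 0.0139). Without HS 135 min replicate 1 there were 6 calls, the added one being Ppp1r15b (lower), beside 6156 of 12731 genes.

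**Figure D3:**
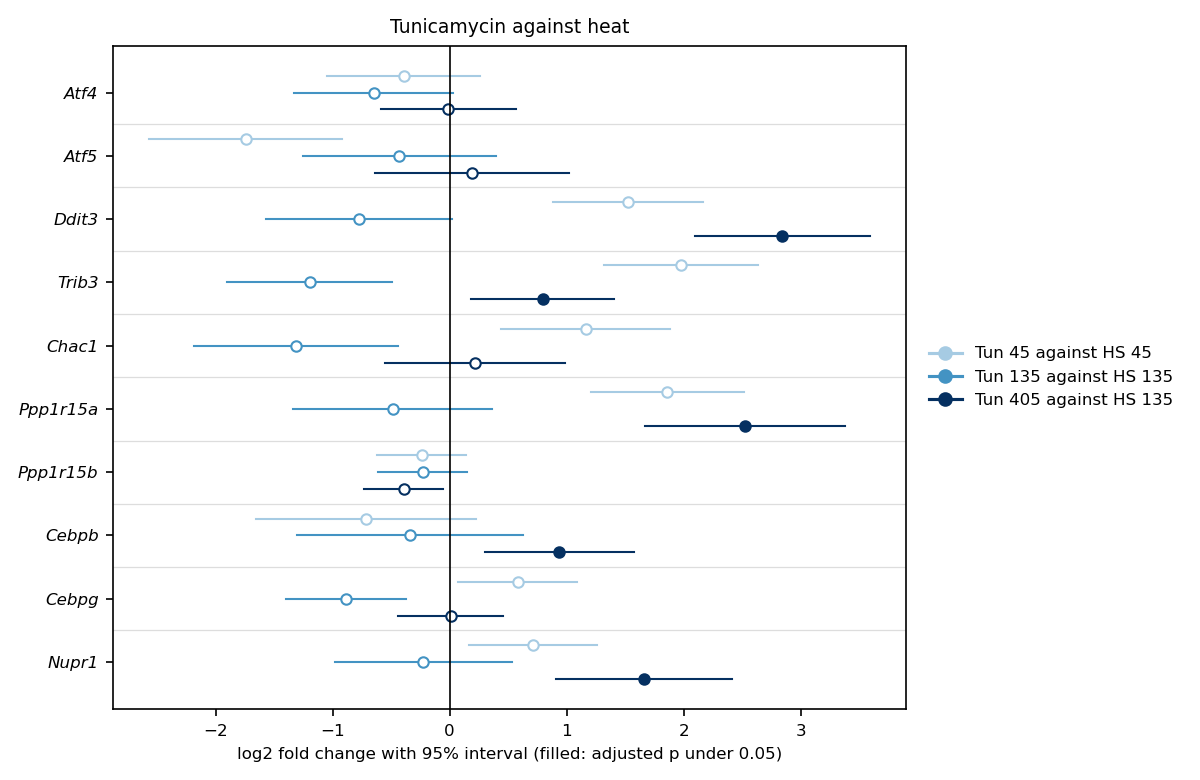
Log2 fold change of each member under tunicamycin against heat (x axis) with its 95% interval, for the pairs at 45 and 135 min and for 405 min of tunicamycin against 135 min of heat. Filled points passed an adjusted p of 0.05, and they belong to Ddit3, Trib3, Ppp1r15a, Cebpb and Nupr1 in the last pair.

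The ATF4 and CHOP branches were also set beside each other within each sample, as a ratio of RPKM values (reads scaled by gene length and library total), which does not depend on scaling between samples. The ratio of Ddit3 to Atf4 was 0.310, 0.281 and 0.300 in the controls, 0.349, 0.330 and 0.400 at 45 min of heat, and 0.481, 0.540 and 0.455 at 135 min of heat. Under tunicamycin it was 1.02, 1.35 and 1.61 at 45 min, 0.510, 0.502 and 0.360 at 135 min, and 3.10, 3.98 and 3.71 at 405 min. Ddit3 mRNA thus exceeded Atf4 mRNA per length in the 6 tunicamycin samples at 45 and 405 min and in none of the other 12 samples. HS 45 min replicate 3, which was low for both genes, had the highest ratio of its group. These ratios are given as a description, with no test.

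The ratio of Ppp1r15a to Ppp1r15b, the inducible to the constitutive phosphatase subunit, followed the same order. It averaged 0.791 ± 0.123 in the control, 1.09 ± 0.374 at 45 min and 1.92 ± 0.792 at 135 min of heat, and 4.66 ± 0.185, 1.63 ± 0.342 and 14.7 ± 1.82 at 45, 135 and 405 min of tunicamycin (SD, n = 3). Heat samples had 1.09, 1.46 and 0.709 at 45 min, overlapping the controls (0.684 to 0.926), and 1.02, 2.50 and 2.24 at 135 min. These 2 genes had unlike weights on the axis of within-group spread (percentiles 90.0 and 51.1), and its part in this ratio was not tested. The ratio of Chac1 to Atf4 took another course, with 0.0899 ± 0.0255 in the control, 0.251 ± 0.0673 at 135 min of heat and 0.300 ± 0.0131 at 405 min of tunicamycin (SD, n = 3), and the last 2 groups overlapped. In RPKM the order of the members changed accordingly. Atf5 (388 ± 242) and Atf4 (238 ± 11.4) led in the control, where Ddit3 had 70.5 ± 2.09, but at 405 min of tunicamycin Ddit3 led with 2455 ± 313, above Atf5 (735 ± 242) and Atf4 (683 ± 26.0), which did not differ beyond their spread (SD, n = 3).

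**Figure D4:**
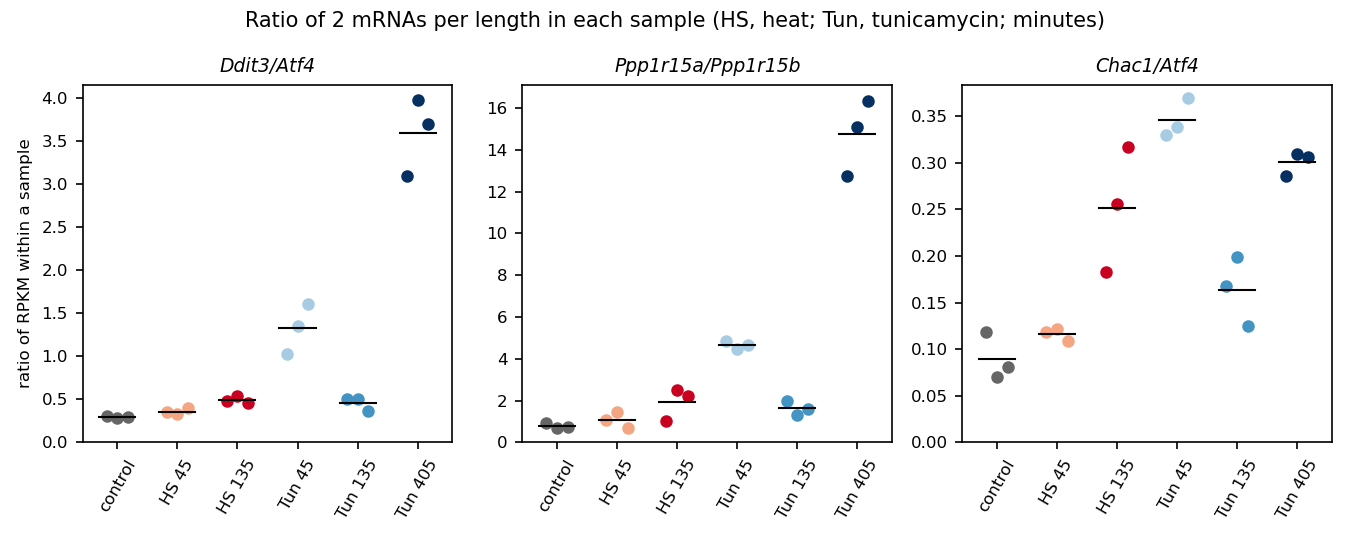
Ratio of the RPKM of 2 members within each sample (y axes from 0) in the 6 groups, with group means as bars. The ratio of Ddit3 to Atf4 exceeds 1 at 45 and 405 min of tunicamycin alone, whereas that of Chac1 to Atf4 overlaps between 135 min of heat and 405 min of tunicamycin.

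The other genes of the pathway were counted in whole lists. Of the 4 eIF2α kinases, Eif2ak3, which encodes PERK, rose by 1.70 (log2 fold change) at 405 min of tunicamycin (adjusted p = 6.86e-05, edgeR) and was also higher than at 135 min of heat (1.03, adjusted p = 0.00474). The double-stranded RNA sensor Eif2ak2 fell by 1.02 at 135 min of heat (adjusted p = 0.038, edgeR) and by 1.08 at 405 min of tunicamycin (adjusted p = 0.000444). The amino acid sensor Eif2ak4 (-0.70, adjusted p = 0.00199, edgeR) and the haem-regulated kinase Eif2ak1 (-0.35, adjusted p = 0.0461) fell at 405 min of tunicamycin, and neither passed at 135 min of heat. At 45 min of tunicamycin none of the 4 kinases passed. Of 8 subunits of eIF2 and its exchange factor eIF2B, none passed at 135 min of heat, and at 405 min of tunicamycin Eif2s2 rose (1.18, adjusted p = 0.00864, edgeR) while Eif2s3x (-0.71, adjusted p = 0.00326) and Eif2b5 (-0.44, adjusted p = 0.021) fell. At 405 min of tunicamycin 23.3% of all genes were called higher and 23.5% lower, which is the background for both lists.

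Of 27 ATF4 targets outside the members 8 rose and 0 fell at 135 min of heat (4.75% of all genes called higher and 2.64% lower). At 45 min of tunicamycin 10 of these targets rose and 0 fell (4.01% of all genes called higher and 2.17% lower). At 405 min 25 of the targets rose and 0 fell (23.3% called higher and 23.5% lower). Their median log2 fold changes were 0.42, 0.50 and 1.37, beside medians of -0.02, -0.00375 and -0.01 over all genes. Atf3, a transcription factor of the same family, had a log2 rise of 5.62 at 135 min of heat (adjusted p = 0.00485, edgeR) and of 6.52 at 405 min of tunicamycin (adjusted p = 1.18e-06). The hormone gene Fgf21 rose by 4.64 (adjusted p = 0.0058, edgeR) and by 5.70 (adjusted p = 1.01e-05). Gdf15, which encodes another secreted stress signal, also passed at both (0.0699 ± 0.0453 CPM in the control, 3.53 ± 1.93 at 135 min of heat and 2.34 ± 0.433 at 405 min of tunicamycin, SD, n = 3), but the control lay near the 3-read level, so its fold is uncertain. Of the 27, 14 were higher at 405 min of tunicamycin than at 135 min of heat, beside 17.9% of all genes. Atf3 was not among the 14 (0.84, adjusted p = 0.0692, edgeR).

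Of 6 CHOP targets 2 rose at 135 min of heat, 4 rose at 45 min of tunicamycin, and at 405 min 4 rose and 1 fell. Over all genes 4.75%, 4.01% and 23.3% were called higher in these comparisons, and 23.5% were called lower at 405 min. Avil had a log2 rise of 1.90 at 135 min of heat (adjusted p = 0.0242, edgeR) and of 6.27 at 405 min of tunicamycin (adjusted p = 1.18e-06), a difference of 4.31 between them (adjusted p = 0.000367). Car6 had 2.14 ± 0.427 CPM in the control, 4.27 ± 2.08 at 135 min of heat and 113 ± 8.53 at 405 min of tunicamycin (SD, n = 3), and passed at 405 min of tunicamycin (5.75, adjusted p = 2.28e-06, edgeR) but not at 135 min of heat (0.996 on the log2 scale, adjusted p = 0.165). Bbc3, which encodes the pro-apoptotic protein PUMA, rose by 1.97 under heat (adjusted p = 0.0206, edgeR) and by 2.13 at 405 min of tunicamycin (adjusted p = 0.000294), and the difference between these groups was 0.10 (95% interval -0.70 to 0.91, adjusted p = 0.833). The ER oxidase gene Ero1l rose by 2.48 at 405 min of tunicamycin (adjusted p = 5.04e-05, edgeR) and differed by 0.07 at 135 min of heat (adjusted p = 0.944). Bcl2l11, which encodes the pro-apoptotic protein BIM, fell by 1.62 at 405 min of tunicamycin (adjusted p = 0.000277, edgeR).

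As a yardstick for the stresses themselves, 11 targets of XBP1 and ATF6, the other arms of the ER stress response, and 7 heat shock genes of the cytosol were counted. Of the 11, 5 rose at 135 min of heat, 0 passed at 45 min of tunicamycin, when 7 members had risen, and 11 rose at 405 min, beside 4.75%, 4.01% and 23.3% of all genes called higher. The largest log2 rises were those of Syvn1 (1.88), Sdf2l1 (1.56) and Manf (1.39) at 135 min of heat and of Creld2 (5.13), Sdf2l1 (5.08) and Dnajb9 (4.48) at 405 min of tunicamycin, genes of ER protein folding and disposal. Of the 7 heat shock genes 6 rose at 135 min of heat, led by Hspb1, which had 0.11 ± 0.0823 CPM in the control, near the 3-read level, and 44.2 ± 28.0 under heat (SD, n = 3), and by Hspa1b (7.24) and Hspa1a (7.20). At 405 min of tunicamycin 5 fell and 1, Bag3, rose (0.83, adjusted p = 0.00119, edgeR), where 23.5% of all genes were called lower. Among other C/EBP genes, Cebpd was tested and passed at none of the 5 comparisons with the control. It was called lower at 405 min of tunicamycin than at 135 min of heat (-1.37 on the log2 scale) and than at 135 min of tunicamycin (-1.22). In these comparisons 4964 and 5566 of 12731 genes were called in either direction. Cebpa and Cebpe were not tested, since some samples had no read of them.

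**Figure D5:**
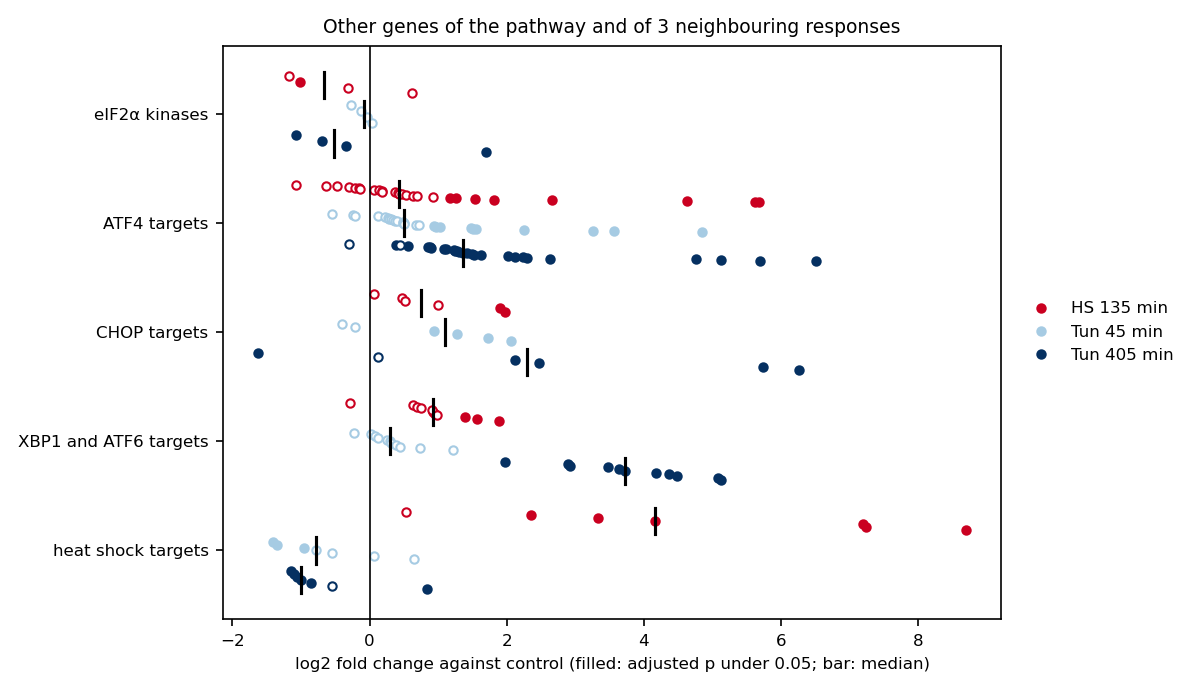
Log2 fold change against the control (x axis) of each tested gene in 5 lists, at 135 min of heat and at 45 and 405 min of tunicamycin (colours). Filled points passed an adjusted p of 0.05 and black bars are list medians. Of the XBP1 and ATF6 targets 0 are filled at 45 min of tunicamycin and 11 at 405 min.

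Outside the members and over the 18 samples, the genes whose log2 CPM was most like that of Ddit3, among 10847 genes, were Fibin (Pearson's r 0.985), Adm2 (0.981) and Ets2 (0.978), and those most like Atf4 were Vps37c (0.958), Cntnap1 (0.948) and Acd (0.947). These are descriptions over samples that share groups, libraries and the axis named above. Fibin had 1.67 ± 0.0507 CPM in the control, 6.66 ± 3.01 at 135 min of heat and 28.9 ± 1.67 at 405 min of tunicamycin (SD, n = 3), and 9.03 ± 1.85 at 45 min but 2.85 ± 0.963 at 135 min, the same high, low and highest course as Ddit3. Vps37c had 31.9 ± 2.48 CPM in the control, 71.1 ± 22.7 at 135 min of heat and 83.2 ± 2.83 at 405 min of tunicamycin (SD, n = 3).

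A pair of members shares bases with a neighbour, and whether reads were counted by strand is not given in the sources used here. Ddit3 overlaps Mars by 63 bases, and Mars had 293 ± 62.0 CPM in the control, 175 ± 8.48 at 135 min of heat and 146 ± 20.8 at 405 min of tunicamycin (SD, n = 3). Atf5 overlaps Nup62 by 153 bases. Nup62 had 402 ± 300.2 CPM in the control (219 to 748), against 185 ± 2.67 at 405 min of tunicamycin (SD, n = 3), so that it too was spread widely among the controls. How far shared reads enter the values of Atf5 was not tested.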

How the data were processed

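Poly(A) mRNA of DD-GFP-expressing NIH3T3 cells was sequenced on an Illumina HiSeq, and on the DNAnexus platform the authors aligned the reads (mm9) and obtained a value for each RefSeq gene. The aligner and its version are not given in the sources used here, and 2 ways of library preparation are described without saying which sample had which. The authors deposited an estimated count for each gene, with no normalization and 4 significant digits (17.7% to 23.2% of low values per sample were not whole), and an RPKM made from the count, gene length and library total. Other deposited columns, a score and a signal derived from the RPKM, were not used. Counts were rounded and tested with edgeR 4.0.16 in R 4.3.3 (TMM within a comparison, quasi-likelihood test, 3 against 3 samples, genes with at least 1 read in every sample, Benjamini-Hochberg adjusted p under 0.05). Standard errors and 95% intervals were derived from the fold change and its F statistic. CPM values used TMM factors over all 18 samples, and per-length levels are RPKM.

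Groups and replicate numbers came from the labels. The members and gene lists were chosen with earlier results of these data known. Named genes were all members, in each list the kinases in full or up to 3 genes each with the strongest rise or fall, among those called, at 135 min of heat and 405 min of tunicamycin, the 3 genes most correlated with Ddit3 and with Atf4, and genes overlapping a member. Cebpd, Cebpa and Cebpe are named because their list had few members, a choice made after their values were seen. Same-numbered samples deviated together in every pair only for 135 min of tunicamycin against control (correlations 0.295, 0.251 and 0.207). Replicates 2 and 3 also correlated across numbers there (0.2005 and 0.165), so that pairing by number was not settled. Replicates differed by more than sampling noise. The fit was tested before use on data simulated for 405 min of tunicamycin against control. The simulated noise was independent between samples, with no shared axis of spread, so that test does not cover the other comparisons.

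Alternatives were DESeq2 size factors, library totals, no filter on low counts, filterByExpr, the DESeq2 1.42.0 Wald test, a fit on all 6 groups, a replicate block, 1 surrogate variable from sva 3.50.0, an added log2 fold change limit of 1 and leaving out each sample. Between 33415592 and 66478268 reads per sample were counted, and the 3-read level covers counting error only. Promoter windows are from RefSeq (GRCm38.p6), a build other than mm9, and were matched by symbol.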

Additional observations from a re-analysis of the deposited data

Results flagged for a closer look

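A test of the difference itself set apart 5 members between 405 min of tunicamycin and 135 min of heat. The differences on the log2 scale were 2.84 for Ddit3, 2.52 for Ppp1r15a, 1.66 for Nupr1, 0.94 for Cebpb and 0.80 for Trib3, higher under tunicamycin in each case (edgeR). Stress and time cannot be told apart in them.

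Between times of tunicamycin, Ppp1r15a was lower at 135 than at 45 min (-1.25), and 8 members were higher at 405 than at 135 min. These 8 log2 differences were 3.64 for Ddit3, 3.04 for Ppp1r15a, 2.02 for Trib3, 1.91 for Nupr1, 1.56 for Chac1, 1.30 for Cebpb, 0.93 for Cebpg and 0.67 for Atf4. With 3 samples per group, single samples were not tested for standing apart.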

How the results depend on the processing

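The number of members called moved with the fit. At 45 min of heat 0 became 5 with the DESeq2 Wald test, 7 with a fit on all 6 groups and 5 with 1 surrogate variable. Over all 12731 genes these settings called 451, 1345 and 1140. At 135 min of tunicamycin 1 became 3 with no filter on low counts, 6 with the DESeq2 Wald test, 6 with a fit on all 6 groups and 7 with the surrogate variable. Over all genes these settings called 25 (of 16024 tested), 665, 411 and 2750. For tunicamycin against heat, 0 became 3 with library totals, 5 with the DESeq2 Wald test, 5 with all 6 groups and 6 with the surrogate variable at 45 min, and 3, 3 and 5 with the last 3 settings at 135 min. Over all genes these settings called 116, 1127, 1270 and 1782 at 45 min, and the last 3 called 1256, 1771 and 4411 at 135 min. A log2 limit of 1 left 3 of 5 at 405 min of tunicamycin against 135 min of heat. Between the heat times 0 became 1, 4 and 7 with the DESeq2 Wald test, all 6 groups and the surrogate variable, which called 403, 905 and 3272 of all genes. Between 45 and 135 min of tunicamycin 1 became 0 with DESeq2 size factors, 2 with library totals, 2 with no filter on low counts, 5 with the DESeq2 Wald test, 2 with all 6 groups and 6 with the surrogate variable. Over all genes these settings called 29, 53, 44 (of 16247 tested), 617, 105 and 1444.

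The replicate block left 0 of 7 members at 135 min of heat (log2 fold changes kept their direction, smallest adjusted p 0.143, edgeR), 4 of 7 at 45 min of tunicamycin, 0 of 1 at 135 min and 0 of 1 between 45 and 135 min. Over all genes the block called 0, 21, 0 and 0 of 12731 in these comparisons. Same-numbered samples did not deviate together in every pair of these comparisons, apart from 135 min of tunicamycin against control, where pairing was not settled. Between 135 and 405 min the block kept 6 of 8 (Atf4 0.0614 and Cebpb 0.0503 lost), beside 3750 of 12731 genes called, and it changed no other call.

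Leaving out 1 sample gave 0 to 9 calls at 45 min of heat, 0 to 8 at 135 min of heat, and 4 to 8, 0 to 2 and 8 to 10 at 45, 135 and 405 min of tunicamycin. In the same order, the fits with the most member calls called 5786, 1236, 2499, 61 and 7897 of all 12731 genes. For tunicamycin against heat, leaving out 1 sample gave 0 to 9 calls at 45 min and 0 to 1 at 135 min. It gave 3 to 6 for 405 min of tunicamycin against 135 min of heat. Between 45 and 135 min of tunicamycin it gave 0 to 5, and between 135 and 405 min 6 to 9. In the same order, the fits with the most member calls called 7087, 364, 6156, 218 and 8126 of all 12731 genes. Between the heat times it gave 0 in each fit, and at most 2 genes were called.

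In 27 cases the sign of a member's log2 fold change turned, and none of these had passed the threshold. With the surrogate variable they were Trib3 at 45 min of heat (-0.0425), Cebpb at 135 min of heat (-0.0277) and of tunicamycin (-0.226), Atf4 (0.0853) and Cebpb (0.0519) for tunicamycin against heat at 45 min, and Atf4 (0.175) and Cebpg (-0.0279) for 405 min of tunicamycin against 135 min of heat. In that last comparison Atf4 also turned with library totals (0.136), no filter on low counts (0.0108), all 6 groups (0.0158), the replicate block (0.0313), without HS 135 min replicate 2 (0.247) and without Tun 405 min replicate 1 (0.0245), and Cebpg with filterByExpr (-0.009), without HS 135 min replicate 2 (-0.149) and without Tun 405 min replicate 1 (-0.0259) or 3 (-0.0063). There too Atf5 turned without HS 135 min replicate 1 (-0.0219) or Tun 405 min replicate 2 (-0.0986), and Chac1 without HS 135 min replicate 1 (-0.091). Library totals turned Ppp1r15b for tunicamycin against heat at 45 min (0.0367). Against the control, Atf5 turned at 45 min of tunicamycin without control replicate 1 (0.186), and at 135 min Atf5 (-0.007) and Cebpb (-0.376) turned without Tun 135 min replicate 1 and Cebpg without control replicate 1 (-0.122). Nupr1 turned for tunicamycin against heat at 135 min without HS 135 min replicate 2 (0.0785), and Atf4 between 45 and 135 min of tunicamycin without Tun 135 min replicate 1 (-0.0081). Over the fits that left out 1 sample, these log2 fold changes ran from -0.7915 to 0.186 (Atf5 at 45 min of tunicamycin), -0.007 to 1.0025 (Atf5), -0.376 to 0.423 (Cebpb) and -0.122 to 0.196 (Cebpg) at 135 min, -0.455 to 0.0785 (Nupr1 against heat at 135 min), -0.190 to 0.247 (Atf4), -0.0986 to 0.510 (Atf5), -0.091 to 0.471 (Chac1) and -0.149 to 0.127 (Cebpg) at 405 min of tunicamycin against 135 min of heat, and -0.0081 to 0.311 (Atf4 between 45 and 135 min of tunicamycin). The cause was not tested.

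Over all genes, the calls per setting ran from 0 to 1345 at 45 min of heat (0 as reported), 0 to 5145 at 135 min of heat (941), 21 to 3272 at 45 min (786), 0 to 2750 at 135 min (17) and 4057 to 6966 at 405 min of tunicamycin (5960), 0 to 1782 (26) and 0 to 4411 (270) for tunicamycin against heat at 45 and 135 min, 4964 to 8196 for its last time (4964), 0 to 3272 between the heat times (0), and 0 to 1444 (37) and 3750 to 7609 (5566) between successive tunicamycin times. Library totals shifted the median of all genes by -0.17 and -0.16 at 135 and 45 min of heat, 0.11 at 45 min of tunicamycin, and 0.27, 0.15 and 0.11 in the 3 comparisons of tunicamycin with heat. Depth does not limit the members, whose lowest level lay far above 3 reads.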
